A study of Mus musculus with 36 samples.

Results

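A set of 10 genes that glucocorticoids induce in many tissues was followed through every library of the series: Per1, Tsc22d3, Fkbp5, Klf9, Ddit4, Cdkn1a, Errfi1, Pdk4, Mt1 and Mt2. They were chosen by their gene symbol, with earlier results of these data known. All 10 were found once in each of the 2 deposited expression tables, among 22322 genes that have values in both. All 10 passed the filter on low values in each of the 13 comparisons.

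Corticosterone, the main glucocorticoid of mice, crosses into the brain and binds the glucocorticoid receptor, which is encoded by Nr3c1 and is held by Hsp90 chaperones until the hormone arrives. The bound receptor enters the nucleus and raises transcription of genes near its binding elements within minutes to hours. Several of these targets act as brakes: Fkbp5 encodes a co-chaperone that lowers the receptor's affinity for hormone, Tsc22d3 encodes the anti-inflammatory leucine zipper protein GILZ, and Ddit4 encodes an inhibitor of the growth kinase complex mTORC1. Most of the 10 also answer to other signals, among them neuronal activity, metals, fasting and DNA damage.

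The libraries came from mouse striatum. In translating ribosome affinity purification (TRAP), a fluorescent tag on the ribosomal protein L10a is expressed in a chosen cell type, so that its ribosomes and the RNA on them can be pulled down. The RNA that stays behind, the unbound RNA, represents the tissue at large. In the first set of mice, tamoxifen given at 4 to 6 weeks of age switched on Eef1a1LSL.eGFPL10a/+ through Cx3cr1CreErt2/+(Litt), a Cre of microglia and other macrophages. Camk2a-tTA, a driver of forebrain neurons, ran TetO-Chrm3 or TetO-Chrm4 in the same mice. The designer receptor derived from Chrm3 excites neurons and that derived from Chrm4 silences them when clozapine-N-oxide (CNO) is given. Animals of both lines received CNO or saline 2 h before the experiment. Pull-down and unbound RNA each had 3 libraries per treatment in the Chrm3 line and 2 in the Chrm4 line. In the second set, Drd1-eGFPL10a tagged the ribosomes of D1 neurons, the spiny projection neurons of the direct pathway. Its control groups held 4 pull-downs and 4 unbound libraries, and its groups labelled Il34-KO held 3 and 4. The labels of the knockouts add Drd1-Cre, and the source labels of both, controls included, read Il34-/-. No label says which libraries came from separate animals, so p-values measure the spread between libraries.

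Depth in genes ran from 12097423 to 108589804 reads per library in the table of the receptor lines and from 11281757 to 41107736 reads in that of the D1 line. The summed level of 8 microglial markers was 1906 to 2836 RPKM (read numbers divided by gene length and library size) in the microglial pull-downs and 15.8 to 27.0 RPKM in their unbound RNA. The 5 D1 neuron markers in the table summed to 1034 to 1503 RPKM in the D1 pull-downs and to 178 to 261 RPKM in their unbound RNA. Il34, the targeted gene, lay at 6.56 to 10.5 RPKM in the control D1 pull-downs and at 9.84 to 11.1 RPKM in those labelled Il34-KO, so its level did not separate the labels. Markers of choroid plexus summed to 296 RPKM in unbound library 2 and to 72.3 RPKM in pull-down library 2 of the CNO-treated Chrm4 mice, against at most 36.9 RPKM in the other libraries of the receptor lines. Library numbers here are places within a group, since the column headings carry no replicate numbers, and libraries were not fitted as pairs. Same-place libraries of pull-down and unbound RNA did share traits: the choroid plexus markers above, and the low depth of library 1 in both CNO groups of the Chrm3 line. Unbound RNA is what stays behind after a pull-down, so the 2 fractions share animals, though the headings do not say which libraries belong together. Comparisons between the fractions treat the libraries as independent, so their SEs and p-values leave this sharing out.

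All 10 genes had at least 1 start region in RefSeq's promoter table, 15 in all on GRCm38.p6, each running from 250 bases before to 50 bases after a transcription start. The reads themselves were placed on the older build mm9, per the submitters' processing notes. A full glucocorticoid response element, taken as AGAACA and its reverse complement TGTTCT facing each other 3 bases apart, was in none of the 15 windows and in 0.00913% of all 32851. A single AGAACA on either strand was in 1 window, an upstream start of Tsc22d3, and in 19% of all. These windows are short, and the absence of the letters says nothing of binding elsewhere. The metal response element core, taken as TGCACNC or TGCGCNC on either strand, was in 4 of the 15 windows, each of another gene, and in 25.7% of all windows. Mt1 held 3 matches and Mt2 held 4, against at least 3 in 1.97% and at least 4 in 0.517% of all windows. The arm TGACG of the cAMP response element was in 6 of the 15 windows (20.8% of all windows) and the E-box CACGTG in 2, of Per1 and Fkbp5 (7.15%).

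The neighbouring metallothionein genes are shown because their levels parted between pull-down and unbound RNA; Mt1 starts at the window chr8:94178839-94179138 and Mt2 at chr8:94172368-94172667, both on the plus strand. Per1 (chr11:69098699-69098998, plus strand) and the upstream start of Tsc22d3 (chrX:140600473-140600772, minus strand) are shown because these genes lay highest in the Chrm3 mice given CNO. All are written 5′ to 3′ on the gene's strand. Capitals mark metal response element cores in Mt1 and Mt2, the cAMP response element arm in Per1 and the single glucocorticoid element arm in Tsc22d3.

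Mt1: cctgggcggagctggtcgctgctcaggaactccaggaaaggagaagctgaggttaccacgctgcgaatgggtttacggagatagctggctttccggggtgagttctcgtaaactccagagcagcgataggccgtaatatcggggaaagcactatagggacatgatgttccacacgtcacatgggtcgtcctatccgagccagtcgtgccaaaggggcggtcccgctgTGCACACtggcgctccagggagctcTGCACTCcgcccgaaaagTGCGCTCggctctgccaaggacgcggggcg
Mt2: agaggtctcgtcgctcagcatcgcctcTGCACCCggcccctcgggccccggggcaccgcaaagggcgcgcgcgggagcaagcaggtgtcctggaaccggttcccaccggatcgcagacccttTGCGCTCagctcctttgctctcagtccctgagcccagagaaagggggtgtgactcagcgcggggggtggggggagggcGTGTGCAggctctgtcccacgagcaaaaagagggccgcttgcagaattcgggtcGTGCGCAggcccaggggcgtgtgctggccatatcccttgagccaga
Per1: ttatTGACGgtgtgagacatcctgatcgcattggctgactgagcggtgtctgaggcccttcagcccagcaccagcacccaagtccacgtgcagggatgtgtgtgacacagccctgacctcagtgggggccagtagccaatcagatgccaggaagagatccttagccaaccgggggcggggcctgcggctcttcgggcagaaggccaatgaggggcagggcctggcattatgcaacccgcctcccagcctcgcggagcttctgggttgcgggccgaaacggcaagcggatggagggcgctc
Tsc22d3: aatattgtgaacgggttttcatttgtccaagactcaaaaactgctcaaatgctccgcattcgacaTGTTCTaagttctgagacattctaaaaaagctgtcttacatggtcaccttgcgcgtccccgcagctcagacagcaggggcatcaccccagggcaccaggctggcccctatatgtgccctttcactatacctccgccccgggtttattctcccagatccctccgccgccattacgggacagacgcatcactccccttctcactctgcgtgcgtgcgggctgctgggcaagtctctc

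Fkbp5 and Tsc22d3 stood high in the microglial pull-downs. Fkbp5 means in the microglial pull-downs ran from 30.5 to 39.7 RPKM over the 4 groups, and no other group mean passed 8.15 RPKM. Tsc22d3 was likewise highest in the 4 microglial pull-down groups, from 34.4 RPKM in Chrm4 CNO to 106 ± 63.5 RPKM (SD, n = 3) in Chrm3 CNO, and lowest in the control D1 pull-down, at 7.41 ± 1.94 RPKM (SD, n = 4). Klf9, a zinc finger repressor of the Kruppel-like family, was lowest in the microglial pull-downs. Its means were 39.7 to 48.2 RPKM there, 98.7 to 125 RPKM in their unbound RNA and 99.6 to 113 RPKM in the D1 pull-downs. In unbound RNA of the D1 line they were only 53.4 RPKM in controls and 52.4 RPKM in the libraries labelled Il34-KO. Unbound RNA was thus not high for Klf9 in both tables. Per1, a repressor of the circadian clock, spanned only 3.85-fold between its highest group mean, 32.1 ± 8.54 RPKM (SD, n = 3) in the Chrm3 CNO pull-down, and its lowest, 8.36 ± 0.822 RPKM (SD, n = 4) in unbound RNA labelled Il34-KO. The 2 tables may have been normalized separately, so orders that cross them are descriptions of deposited levels.

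**Figure D1:**
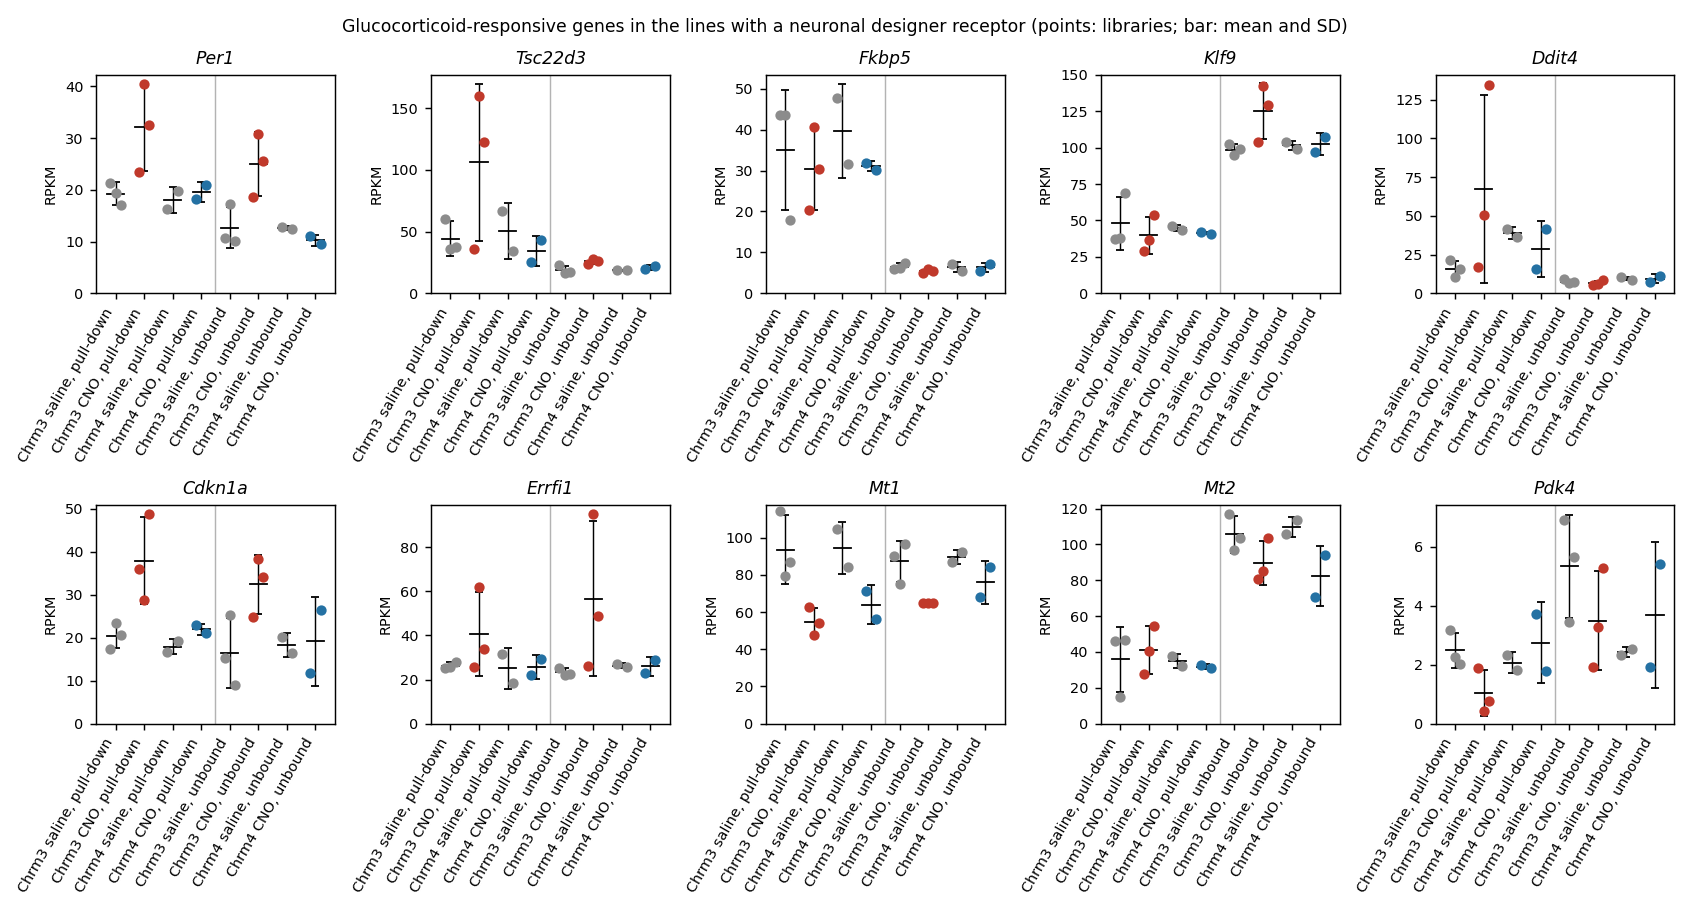
RPKM (y axis, linear) of the 10 genes in the 8 groups of the Chrm3 and Chrm4 lines (x axis), with 1 point per library and a bar for the mean ± SD (grey saline, red Chrm3 CNO, blue Chrm4 CNO). Fkbp5 and Ddit4 lie higher, and Klf9 and Mt2 lower, in the 4 pull-down groups left of the line than in the unbound groups right of it.

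Ddit4 spanned the widest range, 30.5-fold, from 67.3 ± 60.8 RPKM (SD, n = 3) in the Chrm3 CNO pull-down to 2.20 ± 0.730 RPKM (SD, n = 4) in control unbound RNA of the D1 line. Cdkn1a, which encodes the cell cycle inhibitor p21, was highest in the 2 Chrm3 CNO groups, at 37.9 ± 10.1 RPKM in the pull-down and 32.5 ± 6.89 RPKM in the unbound RNA (SD, n = 3 each). Errfi1, which encodes a feedback inhibitor of the receptor Egfr, had the same 2 groups on top, at 56.7 ± 35.3 RPKM unbound and 40.6 ± 18.99 RPKM in the pull-down (SD, n = 3 each). Pdk4, a kinase that shuts pyruvate out of oxidation during fasting, was the lowest of the 10, with group means from 0.927 to 5.33 RPKM. Its smallest value, 0.426 RPKM in Chrm3 CNO pull-down library 2, rested on 164 recovered reads. Its fewest reads were 44, in control D1 pull-down library 4.

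Mt1 and Mt2, which encode zinc-binding metallothioneins, are close copies and the sources used here do not say how reads matching both were treated, so the split between them is uncertain. Mt1 was the flattest gene, with a 1.99-fold span and with no neighbouring pair in its order of 12 groups lying farther apart than the larger of the 2 SDs. Mt2 spanned 3.46-fold, and all 6 pull-down groups, at 31.8 to 40.9 RPKM, lay under all 6 unbound groups, at 82.4 to 110 RPKM. For the other 8 genes, 1 or 2 of the 11 steps between neighbouring groups were larger than the SDs on either side. In Fkbp5 those were the step below the microglial pull-downs and the step between the unbound RNA of the receptor lines and that of the D1 line. In Mt2 they were the step below the 2 saline unbound groups and the step from unbound to pull-down. On the GRCm38 annotation Fkbp5, Cdkn1a, Mt2, Klf9 and Errfi1 overlap other annotated genes, some on the opposite strand, and whether counting used the strand is not given in the sources used here. Mt3, the brain metallothionein, was listed at 0 to 2.58 RPKM in these tables.

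**Figure D2:**
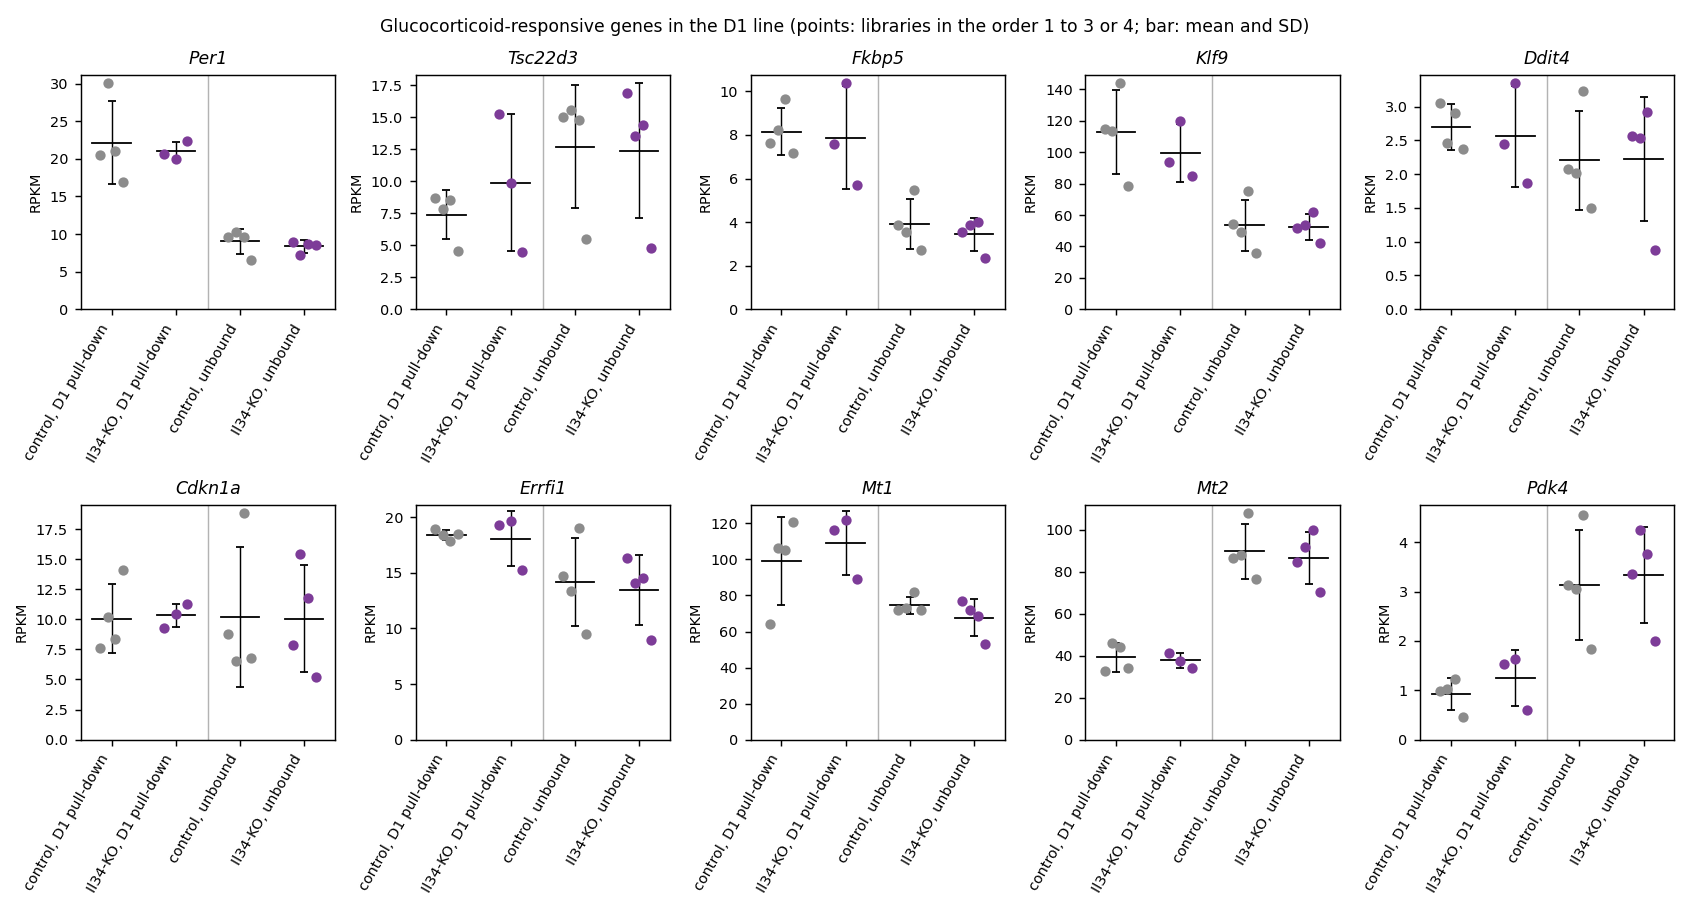
RPKM (y axis, linear) of the 10 genes in the 4 groups of the D1 line (x axis), with 1 point per library in the order of its number and a bar for the mean ± SD (grey controls, purple labelled Il34-KO). Mt2 and Pdk4 lie lower in the D1 pull-downs than in unbound RNA, and Tsc22d3 is lowest in the last library of every group. In the pull-downs labelled Il34-KO its values are spread out, at 15.3, 9.90 and 4.52 RPKM, and no library lies apart.

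The microglial pull-downs carried more Fkbp5, Ddit4, Tsc22d3 and Per1 RNA than the tissue left behind, and less Mt2 and Klf9 RNA. In the saline groups of both receptor lines, 4 of the 10 genes rose and 2 fell in the pull-down, where 31.9% of 11721 genes rose and 33.2% fell. With 65.1% of all genes called, the 6 calls are near the background. The median difference of the 10 was 0.13 on the log2(RPKM + 1) scale, against -0.03 for all genes.

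Fkbp5 read 43.6, 43.6, 17.98, 47.8 and 31.6 RPKM in the 5 saline pull-downs and 5.97, 6.21, 7.44, 7.23 and 5.54 RPKM in the 5 unbound libraries. The groups did not overlap, and the difference was 2.30 ± 0.22 (log2, SE; adjusted p = 2.5e-08). Here and below, the share of all genes whose groups did not overlap is not given, so a lack of overlap is description only. The low pull-down, Chrm3 saline library 3, also had the lowest microglial marker sum, 1906 RPKM, and the highest oligodendrocyte marker sum of the pull-downs, 261 RPKM. Its perivascular macrophage markers summed to 18.55 RPKM, against 51.15 and 49.41 RPKM in Chrm3 saline pull-down libraries 1 and 2. The part of these cells in its low Fkbp5 was not tested. Tsc22d3 read 60.2, 35.5, 37.3, 66.6 and 34.4 RPKM in the pull-downs against 22.5, 16.2, 17.6, 18.8 and 18.5 RPKM unbound. Every pull-down lay above every unbound library, with a difference of 1.25 ± 0.30 (adjusted p = 0.0012).

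Ddit4 was uneven between the lines. It read 21.2, 10.5 and 15.6 RPKM in the Chrm3 saline pull-downs, 41.6 and 36.4 RPKM in the Chrm4 ones, and 6.68 to 10.4 RPKM in the 5 unbound libraries. All 5 pull-downs lay above all unbound libraries (log2 difference 1.43 ± 0.38, adjusted p = 0.0026). Between the lines at baseline the Chrm3 pull-downs were lower by -1.30 ± 0.60, which did not pass (adjusted p = 0.996). Per1 read 16.2 to 21.4 RPKM in the pull-downs and 10.2 to 17.3 RPKM unbound, so the groups overlapped. Its difference was 0.54 ± 0.17 (adjusted p = 0.0096), and after quantile scaling of the libraries it was 0.38 with an adjusted p of 0.0504.

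Mt2 read 46.1, 14.6, 46.6, 37.7 and 32.1 RPKM in the pull-downs against 117, 96.7, 104, 106 and 114 RPKM unbound. It fell by 1.67 ± 0.24 (adjusted p = 6.2e-06), with no overlap. Mt1, in contrast, read 79.4 to 114 RPKM in the pull-downs and 75.3 to 96.6 RPKM unbound (0.08 ± 0.12, adjusted p = 0.59; 95% interval -0.18 to 0.34). Klf9 read 37.3, 38.0, 69.2, 46.2 and 43.5 RPKM against 102, 94.8, 98.9, 104 and 99.3 RPKM unbound, and fell by 1.12 ± 0.17 (adjusted p = 7.6e-06). Its highest pull-down was again Chrm3 saline library 3.

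Cdkn1a and Errfi1 differed by 0.19 ± 0.23 and 0.02 ± 0.27, and neither passed. Pdk4 was lower by -0.50 ± 0.27 (adjusted p = 0.11), but passed after quantile scaling (-0.64, adjusted p = 0.0421) and when only the groups compared were fitted (adjusted p = 0.0464). Markers of other cells remained in the pull-downs. Astrocyte markers summed to 79.8 to 109 RPKM in the saline pull-downs and 176 to 222 RPKM unbound, and oligodendrocyte markers to 104 to 261 and 402 to 597 RPKM. D1 neuron markers summed to 70.5 to 152 RPKM in the saline pull-downs and 157 to 241 RPKM unbound, and D2 neuron markers to 116 to 255 and 374 to 702 RPKM. The part of these cells in the lower Mt2 and Klf9 was not tested. In bulk RNA, fewer cells of a type and less RNA per cell cannot be told apart.

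**Figure D3:**
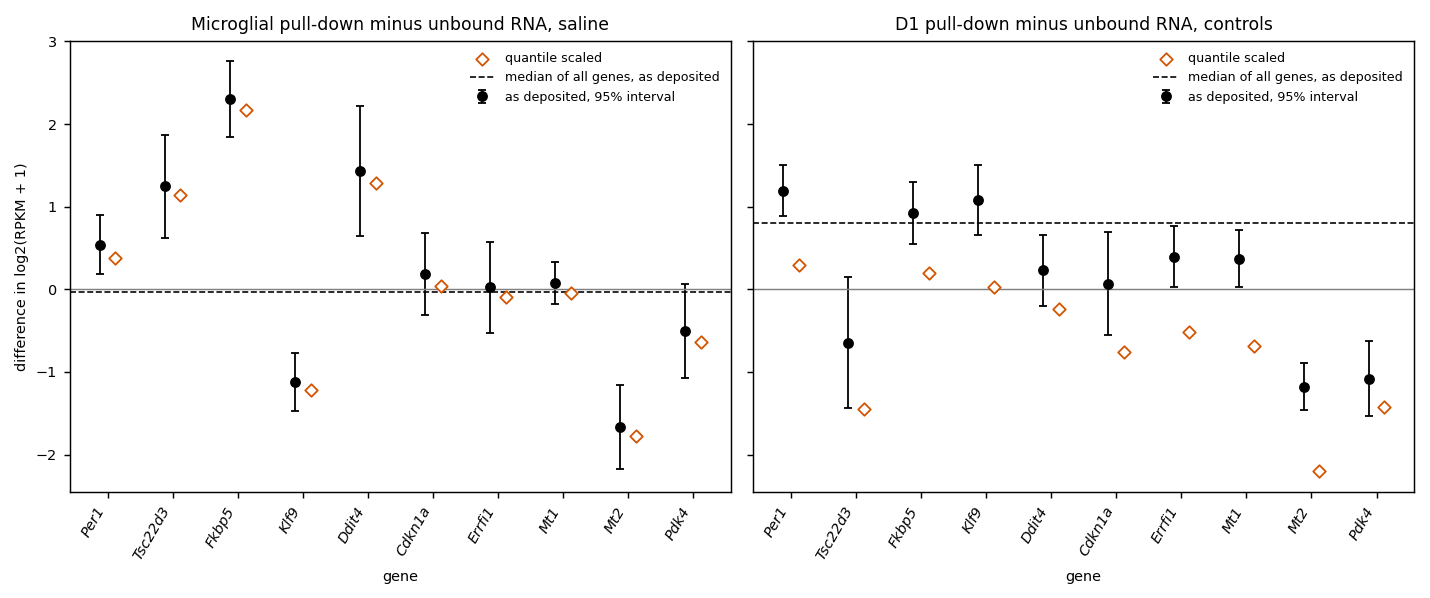
Difference between pull-down and unbound RNA on the log2(RPKM + 1) scale (y axis) for the 10 genes (x axis), in the saline groups of the receptor lines at left and the D1 line controls at right (black points with 95% intervals, deposited values; open diamonds, quantile scaled values; dashed line, median of all genes). Mt2 lies below 0 in both panels on both scales, and the diamonds of Mt1 and Errfi1 cross 0 at right.

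In D1 neurons the same contrast is read against a shift of the whole table. The median of all 10266 genes was 0.81 higher in the control pull-downs than in unbound RNA as deposited, and 0.10 higher after quantile scaling. As deposited, 5 of the 10 genes rose (84.8% of all genes) and 2 fell (6.84%), 91.7% of all genes being called; quantile scaling turned that split to 3609 genes higher and 2291 lower, and voom to 3872 and 2172. Relative to the median shift, Per1, Klf9 and Fkbp5 lay at 0.39, 0.27 and 0.12, and the other 7 lay below it, from -0.41 for Errfi1 to -1.99 for Mt2.

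Mt2 read 32.5, 45.9, 44.3 and 33.9 RPKM in the D1 pull-downs against 86.5, 87.7, 108 and 76.4 RPKM unbound. It fell by 1.18 ± 0.14 (adjusted p = 3.2e-07), and by between 1.09 and 2.20 over all alternatives tried. Pdk4 read 0.989, 1.03, 1.23 and 0.468 RPKM against 3.13, 3.05, 4.56 and 1.83 RPKM, and fell by 1.08 ± 0.21 (adjusted p = 0.00013). Neither gene's groups overlapped. Astrocyte markers summed to 69.0 to 82.0 RPKM in these pull-downs and 273 to 286 RPKM unbound, and microglial markers to 5.26 to 7.18 and 19.6 to 23.3 RPKM; their part was not tested.

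Tsc22d3 read 8.70, 7.80, 8.57 and 4.57 RPKM in the pull-downs against 15.03, 15.6, 14.8 and 5.49 RPKM unbound. Its difference of -0.65 ± 0.38 did not pass (adjusted p = 0.11). It passed after quantile scaling (-1.45, adjusted p = 0.0042), on recovered reads with voom (-1.57, adjusted p = 0.0051), with only the groups compared (adjusted p = 0.0451) and without unbound library 4 (-0.97, adjusted p = 0.0188). Unbound library 4 was the low one.

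Per1 read 20.6, 30.0, 21.1 and 16.95 RPKM in the D1 pull-downs and 9.66, 10.3, 9.56 and 6.53 RPKM unbound, a rise of 1.20 ± 0.15 (adjusted p = 7.2e-07). After quantile scaling the difference was 0.30 (adjusted p = 0.0612). Klf9 (115, 114, 144 and 78.6 against 54.0, 49.0, 75.1 and 35.7 RPKM) and Fkbp5 (7.16 to 9.63 against 2.70 to 5.46 RPKM) rose by 1.08 ± 0.20 and 0.92 ± 0.18 as deposited. Quantile scaling left 0.03 and 0.20, which did not pass. Mt1 and Errfi1 rose by 0.37 ± 0.16 and 0.40 ± 0.17 as deposited (adjusted p = 0.041 and 0.040) and turned to -0.68 and -0.52 after quantile scaling, so no direction is given for them. Ddit4 and Cdkn1a did not pass under any alternative tried.

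The Chrm3 line asks what exciting forebrain neurons does to these genes. In the microglial pull-down, Ddit4, Tsc22d3, Per1 and Cdkn1a lay higher and Mt1 and Pdk4 lower after CNO than after saline, but 0 of the 10 passed in limma or in voom, with 0.0436% of 11465 genes called. The unadjusted p was under 0.05 for 6 of the 10, against 5.49% of all genes. The 10 were chosen with earlier results of these data known, so these shares are no test of the set. Activity-induced early genes, a list of 12 that includes Fos and Nr4a1, were all higher there, and 5 of them rose; their median difference was 2.86.

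Ddit4 read 16.6, 50.4 and 135 RPKM with CNO and 21.2, 10.5 and 15.6 RPKM with saline (log2 difference 1.62 ± 0.54, adjusted p = 0.75). Tsc22d3 read 35.8, 159 and 123 RPKM against 60.2, 35.5 and 37.3 RPKM (1.03 ± 0.44, adjusted p = 0.87). In both genes CNO library 1 lay within the saline range and the other 2 above it. Without that library, Tsc22d3 differed by 1.68 (adjusted p = 0.0408) and Ddit4 by 2.36 (adjusted p = 0.0276). Other single libraries lowered the differences: Tsc22d3 was at 0.62 without CNO library 2, and Ddit4 at 0.89 without CNO library 3. Over all alternatives the adjusted p ran from 0.0408 to 0.999 for Tsc22d3 and from 0.0276 to 0.998 for Ddit4.

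CNO library 1 had 14066971 reads, the fewest of the group, and was low for induced genes outside the 10 as well. Fos read 3.23 RPKM there against 29.6 and 23.4 RPKM in the other CNO pull-downs, Nr4a1 19.9 against 71.6 and 76.2 RPKM, and Sgk1, a kinase gene induced by glucocorticoids, 44.1 against 131 and 131 RPKM. It was the lowest CNO pull-down for 7 of the 10 genes and for 27.3% of all genes.

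Per1 read 23.4, 40.5 and 32.5 RPKM with CNO and 21.4, 19.3 and 16.97 RPKM with saline, without overlap (0.68 ± 0.22, adjusted p = 0.71). Cdkn1a read 36.1, 28.9 and 48.9 RPKM against 17.4, 23.4 and 20.7 RPKM, also without overlap (0.84 ± 0.21, adjusted p = 0.43). With so few libraries a group, such separation can also arise by chance. Mt1 was lower in every CNO library, at 62.8, 47.8 and 54.1 RPKM against 114, 79.4 and 87.1 RPKM (-0.75 ± 0.19, adjusted p = 0.43). Mt2 did not share this: it read 27.5, 40.7 and 54.6 RPKM against 46.1, 14.6 and 46.6 RPKM (0.31 ± 0.36).

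Pdk4 read 1.90, 0.426 and 0.778 RPKM against 3.17, 2.25 and 2.02 RPKM (-0.83 ± 0.36, adjusted p = 0.88). Fkbp5, the gene with the largest pull-down excess, read 20.3, 40.6 and 30.5 RPKM with CNO within the saline range of 17.98 to 43.6 RPKM (-0.15 ± 0.32; 95% interval -0.83 to 0.54). Errfi1 and Klf9 differed by 0.52 ± 0.28 and -0.26 ± 0.25. Markers differed with this contrast too, 0 of them passing. All 5 spiny neuron markers were lower with CNO (median -0.71), as were all 4 D2 neuron markers (-0.50) and 4 of 5 D1 neuron markers (-0.27). All 5 oligodendrocyte and all 6 astrocyte markers were also lower (-0.57 and -0.34), while the 8 microglial markers had a median of 0.01. The part of these cells was not tested.

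In the unbound RNA of the Chrm3 line, Per1, Errfi1 and Cdkn1a lay about 1 log2 unit higher after CNO. Again 0 of the 10 passed in limma, with 0.701% of 11123 genes called, and 1, Per1, passed in voom. Here too 6 of the 10 had an unadjusted p under 0.05, against 12.4% of all genes, with the same limit from how the 10 were chosen. Of the 12 activity-induced early genes, 11 rose, with a median difference of 3.08.

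Per1 read 18.6, 30.8 and 25.6 RPKM with CNO and 10.6, 17.3 and 10.2 RPKM with saline. No saline library reached the lowest CNO library (0.94 ± 0.20, adjusted p = 0.063; 0.0109 to 0.272 over the alternatives). It passed without saline library 2 (1.16, adjusted p = 0.0211) and without CNO library 1 (1.13, adjusted p = 0.0176), and in voom (1.10, adjusted p = 0.0109). Saline library 2 was the high one of its group for Per1, and also for Fos, at 5.01 RPKM against 0.967 and 1.69 RPKM.

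Errfi1 read 26.1, 95.3 and 48.7 RPKM with CNO against 25.4, 22.02 and 22.5 RPKM with saline (1.06 ± 0.32, adjusted p = 0.19). Without CNO library 1 it passed, at 1.51 (adjusted p = 0.0046; 0.0046 to 0.465 over the alternatives). Without CNO library 2 the difference was 0.60. Cdkn1a read 24.9, 38.4 and 34.1 RPKM against 15.1, 25.2 and 9.02 RPKM, with CNO library 1 inside the saline range (1.02 ± 0.33, adjusted p = 0.22). That library had 12097423 reads, read 20.8 RPKM for Fos against 192 and 101 RPKM, and was the lowest of its group for 9 of the 10 genes and for 33.1% of all genes.

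The other genes differed by less in unbound RNA. Tsc22d3 read 23.9, 27.8 and 26.4 RPKM with CNO against 22.5, 16.2 and 17.6 RPKM (0.46 ± 0.12, adjusted p = 0.15), and Klf9 104, 142 and 129 RPKM against 102, 94.8 and 98.9 RPKM (0.33 ± 0.11, adjusted p = 0.26). Both kept their groups apart, which with so few libraries can also arise by chance. Mt1 read 65.1, 65.0 and 65.0 RPKM in the CNO libraries, under the 75.3 to 96.6 RPKM of saline (-0.41 ± 0.11, adjusted p = 0.15). Ddit4 was not higher on average: it read 5.37, 5.74 and 8.34 RPKM against 8.95, 6.68 and 6.98 RPKM (-0.20 ± 0.19; 95% interval -0.61 to 0.21). Here too markers were lower with CNO, 0 of them passing: all 5 of spiny neurons (median -0.58), all 4 of D2 neurons (-0.56), all 5 of oligodendrocytes (-0.34) and 6 of 7 of microglia (-0.34), with 3 of 6 of astrocytes (0.01). Their part was not tested.

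**Figure D4:**
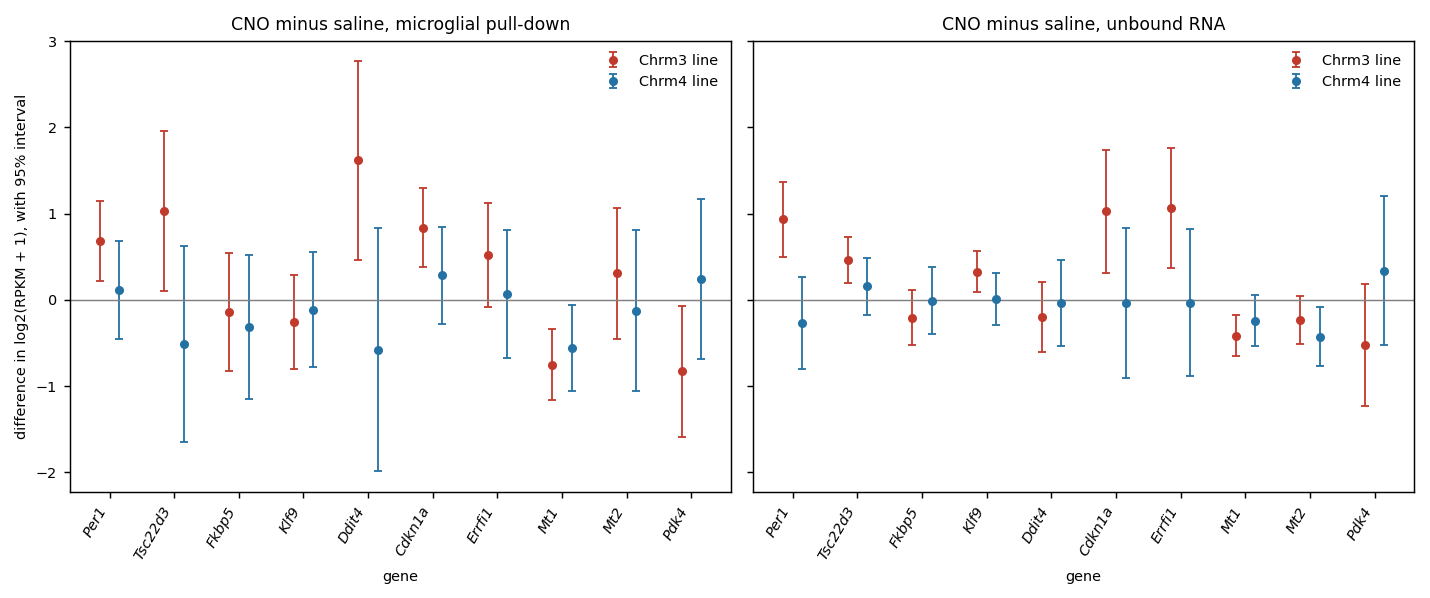
Difference between CNO and saline on the log2(RPKM + 1) scale (y axis) with 95% intervals for the 10 genes (x axis), in microglial pull-downs at left and unbound RNA at right; red is the Chrm3 line, blue the Chrm4 line. In the Chrm3 line Ddit4 is the highest point of the pull-down at 1.62 and Errfi1 that of unbound RNA at 1.06, and no point passed the adjusted test.

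The test of the difference between the fractions' responses to CNO in the Chrm3 line found 0 of the 10 genes (0.00853% of 11721 genes). At an unadjusted p under 0.05 there was 1 of the 10, Ddit4, against 4.07% of all genes; its response was larger in the pull-down by 1.82 ± 0.67 (adjusted p = 1). No member passed in voom either.

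In the Chrm4 line, where CNO silences forebrain neurons, 0 of the 10 genes passed in either fraction, in limma or in voom, and 0% of all genes were called in each. At an unadjusted p under 0.05 there was 1 gene in the pull-down, Mt1, against 3.78% of all genes, and 1 in unbound RNA, Mt2, against 5.03%. Mt1 read 71.4 and 56.5 RPKM with CNO in the pull-down against 104 and 84.4 RPKM with saline (-0.56 ± 0.23, adjusted p = 0.999). Mt2 read 70.6 and 94.1 RPKM unbound against 106 and 114 RPKM (-0.43 ± 0.16, adjusted p = 0.92). In both cases each CNO library lay below each saline library. Groups this small often separate by chance, and the share of all genes that did is not given here. The Mt1 mean was thus lower with CNO than with saline in all 4 pairs of groups of the 2 lines, by -0.75, -0.41, -0.56 and -0.24, none past the threshold. Unbound RNA is what stays behind after the pull-down, so the 4 pairs are not independent comparisons. The share of all genes lower in all 4 is not given here.

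Tsc22d3 and Ddit4, the genes that reached the highest levels in the Chrm3 CNO pull-down, read 25.7 and 43.1 RPKM and 15.9 and 41.2 RPKM in the Chrm4 CNO pull-down, against 66.6 and 34.4 RPKM and 41.6 and 36.4 RPKM with saline. These groups overlap for Tsc22d3 and for Ddit4. Per1 read 18.2 and 20.99 RPKM with CNO in the pull-down against 16.2 and 19.9 RPKM, and 10.996 and 9.53 RPKM unbound against 12.8 and 12.3 RPKM. With 2 libraries a group the intervals are wide, as for Ddit4 in the pull-down, -1.99 to 0.83.

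The responses of the 2 lines were compared directly. In the pull-down, 0 of the 10 genes passed and 0% of all genes were called. At an unadjusted p under 0.05 there were 2, against 3.94% of all genes: the Chrm3 response exceeded the Chrm4 response by 2.20 ± 0.85 for Ddit4 and by 1.54 ± 0.69 for Tsc22d3 (adjusted p = 0.9996 for each). In unbound RNA 0 of the 10 passed, with 0.0539% of all genes called, and 1 had an unadjusted p under 0.05, against 7.14%. That gene was Per1, with a difference of 1.21 ± 0.32 (adjusted p = 0.29), and Cdkn1a and Errfi1 followed at 1.06 ± 0.52 and 1.09 ± 0.51. Voom called none of the 10 in either fraction.

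Under saline the lines themselves differed in 0 of the 10 genes in either fraction, in limma and in voom, with 0% and 0.018% of all genes called in pull-down and unbound RNA. At an unadjusted p under 0.05 there was 1 in each fraction, against 4.9% and 4.32% of all genes. These were Ddit4 in the pull-down, given above, and Pdk4 unbound, at 6.91, 3.44 and 5.65 RPKM in Chrm3 mice and 2.32 and 2.54 RPKM in Chrm4 mice (0.85 ± 0.36, adjusted p = 0.998).

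The D1 line asks whether loss of Il34, a ligand of the microglial receptor Csf1r, shifts these genes. In the libraries labelled Il34-KO, 0 of the 10 genes passed in the D1 pull-down (0.00957% of 10452 genes) or in unbound RNA (0% of 9853 genes), in limma or in voom. At an unadjusted p under 0.05 there were 0 of the 10 in both, against 1.53% and 0.883% of all genes. Differences in the pull-down ran from -0.16 ± 0.19 for Klf9 to 0.27 ± 0.32 for Tsc22d3, and in unbound RNA from -0.15 ± 0.12 for Mt1 to 0.08 ± 0.20 for Pdk4. The intervals bound what could be seen: Errfi1 in the pull-down lay within -0.26 to 0.19, while Tsc22d3 unbound lay within -0.83 to 0.71. The level of Il34 RNA did not separate the labels, so no direction is drawn from them. Microglial markers summed to 8.10 to 16.2 RPKM in unbound RNA labelled Il34-KO and to 19.6 to 23.3 RPKM in that of controls.

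In each of the 4 groups of the D1 line, 1 library was the lowest for most of the 10 genes at once. This was not particular to the D1 line, as library 1 of the Chrm3 CNO groups showed above. Chrm3 saline unbound library 2 was the lowest for 7 of the 10 genes and 32.6% of all genes. Chrm4 CNO unbound library 1 was the lowest for 9 of the 10 and 54.9%. In the Chrm3 saline pull-downs no library was the lowest for more than 4 of the 10. In control unbound RNA of the D1 line Tsc22d3 read 15.03, 15.6, 14.8 and 5.49 RPKM. In unbound RNA labelled Il34-KO it read 16.9, 13.5, 14.4 and 4.76 RPKM. In the control pull-down it read 8.70, 7.80, 8.57 and 4.57 RPKM, and in that labelled Il34-KO 15.3, 9.90 and 4.52 RPKM. In every group the last library was the lowest. Unbound RNA is what stays behind after a pull-down, so the low libraries of the 2 fractions may come from the same animals. They cannot be taken as 4 independent cases.

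Other genes of the set were lowest in the same libraries. Unbound library 4 labelled Il34-KO was the lowest of its group for 9 of the 10 genes, all but Per1, and for 11.8% of 10266 genes. There Ddit4 read 0.873 RPKM against 2.54 to 2.92 RPKM in the other 3 libraries, Pdk4 1.99 against 3.36 to 4.25 RPKM, and Errfi1 8.95 against 14.1 to 16.3 RPKM. Control unbound library 4 was the lowest for 8 of the 10 genes and for 57.7% of all genes. After scaling to equal total RPKM it was still the lowest for the same 8 and for 36.6% of all genes.

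In the pull-downs, control library 4 was the lowest for 6 of the 10 genes and 28.7% of all, and library 3 labelled Il34-KO for 8 of the 10 and 40% of all. Pdk4 read 0.468 RPKM in the former against 0.989 to 1.23 RPKM, and 0.592 RPKM in the latter against 1.54 and 1.63 RPKM. Some genes ran the other way in these pull-downs. Control library 4 was the highest of its group for Mt1 (121 RPKM) and Cdkn1a (14.1 RPKM), and library 3 labelled Il34-KO for Cdkn1a (11.3 RPKM) and Per1 (22.4 RPKM). Sgk1 was low in the same 4 libraries, at 12.97 RPKM against 29.5 to 40.8 RPKM in control unbound RNA and 8.79 RPKM against 27.5 to 33.4 RPKM in that labelled Il34-KO. In the pull-downs it read 25.7 RPKM against 31.2 to 34.6 RPKM, and 25.9 RPKM against 33.5 and 34.2 RPKM.

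These libraries were pointed out after their values were seen, and no label gives them a time of day, batch or handling of their own. Their depths were 11281757 and 18816055 reads unbound, the lowest and the second lowest of their groups, and 26331289 and 27291602 reads in the pull-downs. Astrocyte markers summed to 273 and 249 RPKM in the low unbound libraries against 277 to 286 and 266 to 312 RPKM in the others, and oligodendrocyte markers to 283 and 324 RPKM against 403 to 506 and 355 to 480 RPKM. Fos was not low in the low unbound libraries, at 4.95 and 3.10 RPKM against 0.937 to 2.34 and 1.33 to 2.42 RPKM. The part of depth and cell makeup was not tested.

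**Figure D5:**
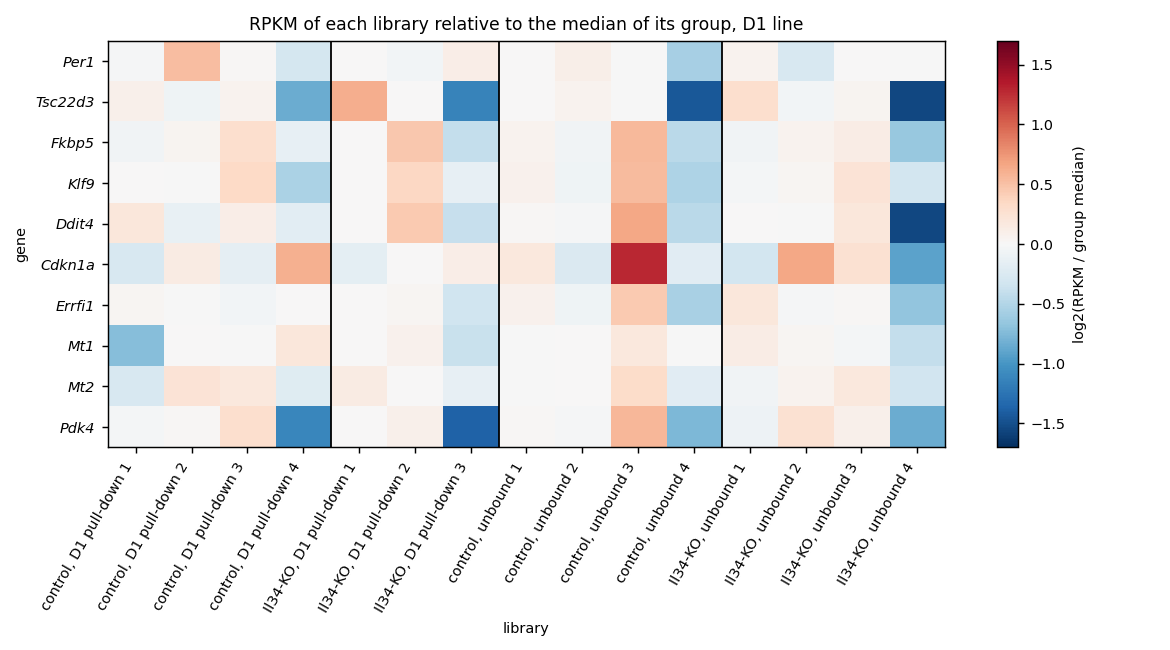
Colour gives log2 of each library's RPKM over the median of its group, for the 10 genes (rows) in the 15 libraries of the D1 line (columns, black lines between groups). The blue columns are control pull-down library 4, pull-down library 3 labelled Il34-KO, control unbound library 4 and unbound library 4 labelled Il34-KO, with Tsc22d3 and Pdk4 among the darkest cells.

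The receptors themselves were present in every group. Nr3c1, the glucocorticoid receptor gene, averaged 25.3 to 27.9 RPKM in the microglial pull-downs of the Chrm3 line and 20.1 to 20.8 RPKM in their unbound RNA, and rose by 0.35 ± 0.11 in the saline pull-downs (adjusted p = 0.0098). Nr3c2, which encodes the mineralocorticoid receptor that also binds corticosterone, fell there by 1.17 ± 0.18. Hsd11b1, which regenerates corticosterone inside cells, was listed at 0 to 2.25 RPKM throughout. Of the 16 tested genes of the receptor machinery, 6 rose and 7 fell in the saline microglial pull-down, among them the coactivator Ncoa3 (1.92 ± 0.12) and the chaperone Hsp90aa1 (-1.39 ± 0.12); these counts are near the 31.9% and 33.2% over all genes. With CNO, 0 of the 16 changed in either fraction of the Chrm3 line.

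A further list of glucocorticoid-induced genes, chosen like all lists here with results of these data known, was read beside the 10. In the Chrm3 pull-down, of its 18 tested genes, 12 were higher and 6 lower with CNO, 0 passed, and the median was 0.17. In the unbound RNA 1 of 18 rose, the phosphatase gene Dusp1 (2.16 ± 0.33, adjusted p = 0.0189), which neuronal activity also induces. Sgk1 differed by 0.64 ± 0.33 in the pull-down (adjusted p = 0.92) and 0.04 ± 0.24 unbound.

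Gene groups around single members were read in the same way in the Chrm3 line, where the share of all genes called was 0.0436% for pull-down libraries and 0.701% for unbound ones. Of 15 clock genes, 0 changed in either fraction, with medians of -0.09 in the pull-down and 0.02 unbound. Of 11 tested p53 targets in the pull-down 0 changed, and of 10 in unbound RNA 1 rose, Btg2 (3.11 ± 0.54), which is itself an activity-induced gene. Of 9 tested genes of Egfr signalling in unbound RNA 1 rose, the phosphatase gene Dusp6 (1.95 ± 0.35). Of 11 tested genes of the stress response and of mTOR restraint, 1 rose unbound, Atf3 (2.88 ± 0.45). The metal-responsive, fasting and Kruppel-like factor lists had 0 changed genes in both fractions. In the Chrm4 line and under the Il34-KO label, 0 genes of any of these lists changed.

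Over the 12 group means of log2(RPKM + 1), Cdkn1a and Errfi1 were among each other's 3 most alike genes of 11526 compared (Pearson r = 0.944), and Csrnp1 was among the 3 of both (0.944 and 0.938). Fkbp5 followed Leprot and Tmsb4x most closely (0.997 for each), Klf9 Rtn4 (0.994), Ddit4 Arhgap29 (0.985), Tsc22d3 Nqo2 (0.975) and Mt2 Luzp2 (0.976). Mt1 followed Ralgds (0.977), Per1 Irs2 (0.962) and Pdk4 Cdh19 (0.926). These are descriptions over 12 points that share tables and fractions.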

How the data were processed

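Bulk RNA-seq of 35 libraries was used; 1 single-nuclei sample was not analysed here. RPKM values per gene were deposited by the authors in 2 tables, which may have been normalized separately. TopHat2 2.1.0 and HTSeq 0.6.0, with bcl2fastq, DESeq2 and the build mm9, are listed in the submitters' processing notes; how multi-mapping reads were treated and whether strand was used are not given in the sources used here. Of 22707 lines in the table of the receptor lines, 147 held no values. Every per-sample column was used.

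RPKM values stepped in whole reads: all values of 18090 and 18102 genes above 0 in at least 2 libraries came out whole within 0.0001 reads (100.0%). Totals recovered this way give the depth. Reads carry no molecular identifiers, so read numbers cover counting error only. In the D1 line table, the recovered total over the library size behind the RPKM ran from 0.675 to 1.32 of its mean, so levels there also depend on that library size.

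Differences were tested with limma 3.58.1 (R 4.3.3) on log2(RPKM + 1) with a variance trend, two-sided, over genes with a mean of at least 1 RPKM, with Benjamini-Hochberg adjustment over all genes and a threshold of 0.05; fold changes on this scale understate those of low genes. The scripts were tested on simulated data. Groups came from the labels, and 13 comparisons were made. Alternatives were a pseudocount of 0.1, no filter, quantile scaling, voom on recovered reads, only the groups compared, each library left out, and levels scaled to equal total RPKM.

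The 10 genes and all lists were chosen with earlier results of these data known. The 10 were named in every comparison, with, from each list, up to 4 genes past the threshold by smallest p; Nr3c1, Nr3c2, Hsd11b1, Sgk1, Fos, Nr4a1 and Mt3 could be named always, and the 3 genes most like each by Pearson r. Promoters are RefSeq's on GRCm38.p6; no coordinates were converted.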

Additional observations from a re-analysis of the deposited data

Results flagged for a closer look

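Dixon's test was applied to each of the 10 genes in the 3 groups of 4 libraries, 30 groups in all, and chance flags about 1 in 20. It flagged 2 libraries. Tsc22d3 in control unbound library 4 of the D1 line read 5.495 RPKM, with a gap to the nearest library of 0.92 of the group's range, above the critical value for 4 libraries. Mt1 in control unbound library 3 of the D1 line read 81.69 RPKM, with a gap of 0.909 of the range; the other 3 libraries read 71.9, 72.8 and 72.1 RPKM.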

How the results depend on the processing

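The count of the 10 genes past the threshold ran from 0 to 2 in the Chrm3 pull-down and from 0 to 2 in the Chrm3 unbound RNA when each library was left out, and was 1 in the unbound RNA with voom. In the D1 pull-down against unbound RNA, Mt1 turned from 0.37 to -0.68 with quantile scaling and to -0.45 with voom, and Errfi1 from 0.40 to -0.52 and -0.43. That comparison's median of all genes moved from 0.81 to 0.10 with quantile scaling; the cause was not tested. Over the 10 genes and 13 comparisons, the call and direction were kept in 130 of 130 with a pseudocount of 0.1, 128 without the filter, 114 with quantile scaling and 116 with voom, and in 88 of 90 with only the groups compared. Of 948 fits with 1 library left out, 834 kept the call and direction, and 96 without a call changed direction. A further 12 lost a call, all of Mt1 or Errfi1 in the D1 pull-down, 6 gained one and 0 reversed one. Scaled to equal total RPKM, 85 of 120 group means stayed within 1 SD. All-gene counts moved by over 1.5 times in the Chrm3 pull-down (5, against 1 without the filter, 18 with voom and 8 with only the groups compared) and the Chrm3 unbound RNA (78, against 1, 127 and 30). They also moved in the line difference of the unbound response (6, against 1 without the filter and 3 with voom) and in the D1 pull-down (9412, against 5900 with quantile scaling and 6044 with voom). Comparisons with 0 to 2 calls had 0 to 3 under these settings. Leaving out 1 library moved the all-gene counts further: from 0 to 35 in the Chrm3 pull-down, from 8 to 115 in the Chrm3 unbound RNA, and, for the difference between the lines, from 0 to 12 in the pull-down and from 1 to 51 in unbound RNA. The highest of each range came without CNO library 1 of the Chrm3 line. No paired analysis was possible because the column headings carry no replicate numbers. Depth limits Pdk4 most, at 44 reads in the library where it had the fewest.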
